A study of Mus musculus with 8 samples.

Results

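Regions with a listed peak of GFP-tagged ZBTB2 in each of 3 cell states were described. The states were mouse embryonic stem cells (ESCs) in serum with LIF, the same ESCs in serum with LIF plus 2i, and neural progenitor cells (NPCs). A region is a stretch formed by merging the peaks of the 3 deposited peak lists wherever they overlapped by at least 1 bp. A region belongs to the set when it holds at least 1 peak of each list. Of 6581 merged regions outside the segments left out, 283 or 4.3% met this rule. A segment of chromosome 10 crowded with 2i peaks (chr10:5852507-6002609 in mm9), the mitochondrial chromosome and contigs of unknown position were left out, which removed 4 of the 287 regions found in all 3 lists.

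All tagged cells carried ZBTB2-GFP on a bacterial artificial chromosome (BAC) in the ESC line IB10, of 129/Ola background. Serum ESCs grew in serum with LIF, 2i ESCs in serum with LIF and 2i, and the NPCs were derived from the tagged ESCs and kept in NPC medium. Chromatin was immunoprecipitated with an antibody against GFP in all 3 states. Each state is 1 library, so the tagged protein was read from a BAC transgene in 1 line with no replicate, and differences between states have no replicate check. The 3 input samples, and 2 in which the GFP antibody was used on cells with no tag, are not analysed here. Whether peaks of the GFP antibody in untagged cells lie in these regions was therefore not tested. Peak lists hold no expression values, so the labelled cell types could not be set against marker genes.

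ZBTB2 belongs to the BTB zinc finger proteins, which bind DNA through their zinc fingers and other proteins through the BTB domain. The series presents it as a protein that recognises DNA without methyl groups. In mammals such DNA is found mostly in CpG islands, short stretches rich in CG pairs that often hold the start sites of genes. 2i is a pair of inhibitors of the kinases MEK and GSK3, which holds ESCs in a naive state and lowers the methylation of their DNA. NPCs are dividing cells of the neural lineage. A region of the set is one where the GFP antibody gave a listed peak in tagged cells in both media and after differentiation.

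The serum list held 4072 peaks, the 2i list 5934 and the NPC list 320. Every peak has a score, the authors' value, read here as a significance on the −log10 scale (of p or of q). Its lowest value was 3.03 in serum, 3.02 in 2i and 2.07 in NPCs, just above the cutoffs of 0.001, 0.001 and 0.01 in the names of the lists. A score grows with sequencing depth, which is unknown, so scores of different lists were set side by side by rank and not by size. In a population of cells, a low score from few occupied cells and one from weak occupancy in each cell cannot be told apart. Intervals given with shares and medians are 95% intervals that cover counting error only and treat regions as independent.

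The NPC list set the size of the group. Of the 3061 regions in both ESC lists, 283 or 9.25% had an NPC peak, whereas 95.6% of the 296 regions with an NPC peak were in both ESC lists. The share was 7.28% of the 3890 regions with a serum peak and 4.93% of the 5745 regions with a 2i peak. The rule used these overlaps and the lengths of the lists cap the shares, so they are a description.

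The 283 regions were among the strongest of both ESC lists. Serum scores ranged from 7.09 to 404.8 with a median of 56.9 (95% interval 52.4 to 62.7), against a median of 17.4 (16.8 to 18.3) in the 2778 regions shared by the ESC lists that had no NPC peak. The 2i scores ranged from 4.66 to 220.8 with a median of 49.2 (43.2 to 52.4), against 17.8 (17.3 to 18.4). The 2 sets overlapped widely: the highest score without an NPC peak was 211.8 in serum and 169.9 in 2i. Scores of ESC peaks took part in choosing the regions through the cutoffs of the lists, so these values are a description without a test.

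**Figure D1:**
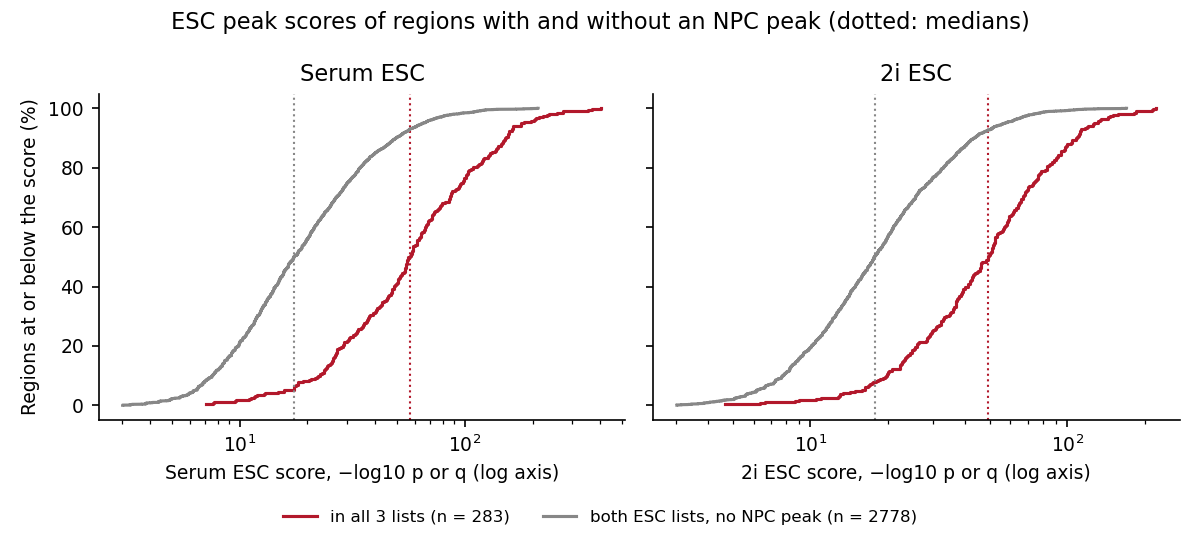
Cumulative share of regions (vertical axis, percent) by ESC score (horizontal log axis, −log10 of p or q) in serum ESCs (left) and 2i ESCs (right), for the 283 regions in all 3 lists (red) and the 2778 regions of both ESC lists without an NPC peak (grey), with dotted lines at the medians. The red curves lie to the right, with medians of 56.9 and 49.2 against 17.4 and 17.8.

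By place in the whole ESC lists, the set was concentrated at the top with a thin tail. Of the 283 regions, 158 or 55.8% (49.8 to 61.7) were in the top 10% of the serum list, 179 or 63.3% (57.3 to 68.9) in the top 10% of the 2i list, and 137 or 48.4% (42.5 to 54.4) in the top 10% of both. The median region stood 8.52% from the top of the serum list and 5.92% from the top of the 2i list. In the other direction, 16 regions fell outside the top 50% of at least 1 ESC list, and 4 of these outside the top 50% of both. In the NPC list, by contrast, the regions were spread over the whole range, with quartiles at 23.9%, 47.5% and 73.0% from the top, because they hold nearly the whole list.

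Regions high in 1 medium and regions high in both media held NPC peaks at unequal rates. Both ESC scores were divided into deciles over the 3061 regions of both ESC lists. In the top decile of both media, 95 of 169 regions or 56.2% (48.4 to 63.8) had an NPC peak. In the top decile of serum but not of 2i the share was 36 of 137 or 26.3% (19.1 to 34.5), and in the top decile of 2i but not of serum it was 34 of 137 or 24.8% (17.8 to 32.9). These 2 shares were alike, and that for both media was higher. Height was not held fixed between the groups, since the top decile of serum score alone spans 60.1 to 404.8. Whether the shares differ at equal height was not tested. Where neither score was in its top decile the share was 118 of 2618 or 4.51% (3.74 to 5.37), and in the lower 5 deciles of both scores it was 8 of 1122 or 0.713% (0.308 to 1.40). The NPC peaks chose the regions, so these shares and those by width describe the lists and are no test.

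Width followed the same gradient. From the lowest to the highest decile of serum peak width, the share with an NPC peak went from 0.977% (0.202 to 2.83) to 41.5% (35.9 to 47.2), close to the 42.8% (37.2 to 48.6) in the top decile of serum score. For 2i peak width the top decile had 37.3% (31.8 to 42.9) and for 2i score 42.2% (36.6 to 47.9). Wide peaks tended also to be high peaks. Serum width and score had a Spearman correlation of 0.65 over the 2778 regions without an NPC peak, and a lower one of 0.42 over the 283 regions with one.

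**Figure D2:**
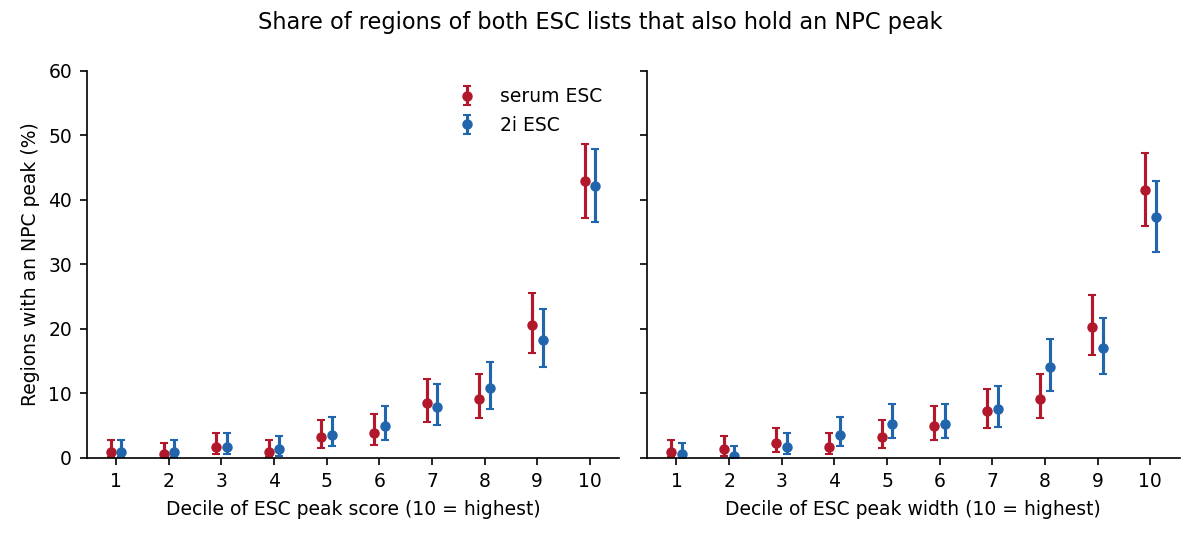
Percent of regions of both ESC lists with an NPC peak (vertical axis) by decile of ESC peak score (left) and ESC peak width (right), for serum (red) and 2i (blue) values, with 95% binomial intervals as bars. Each decile holds 306 or 307 regions, and the share is 42.8% in the top decile of serum score and 0.977% in the lowest.

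Within a band of serum score, the wider regions were still the ones that more often held an NPC peak. In the top decile of serum score the wider 50% of peaks had an NPC peak at 59.2% (51.0 to 67.1) and the narrower at 26.6% (19.8 to 34.3). In the ninth decile the shares were 30.7% (23.5 to 38.7) and 10.5% (6.10 to 16.4), and in the seventh and the eighth together 13.4% (9.79 to 17.7) and 4.25% (2.28 to 7.16). In the lower 6 deciles they were 2.51% (1.60 to 3.74) for wider and 1.30% (0.676 to 2.27) for narrower peaks, with intervals that overlap. All these intervals cover counting error in 1 NPC library, and whether they overlap is no test. Bands still span a range of scores. In the top decile, regions with an NPC peak had a median serum score of 101.1 and those without 75.8, so height was not held fixed there. In the seventh and the eighth decile together the medians were 30.4 and 30.2, and the median serum width was 786.5 bp (617 to 858) with an NPC peak and 552.5 bp (534 to 572) without.

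The 2i list gave the same order within those serum bands. In the seventh and the eighth decile of serum score together, the median 2i score was 30.1 (25.6 to 35.0) in the 54 regions with an NPC peak and 23.5 (22.4 to 25.3) in the 558 without. The median 2i width was 851 bp (763 to 985) against 545 bp (514 to 582). In the ninth decile the median 2i score was 49.0 (41.0 to 53.1) against 36.8 (32.3 to 38.8). At like serum scores, the regions in all 3 lists were thus higher and wider in the 2i library too.

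The regions themselves were about 1 kb long. Their widths ran from 295 to 2263 bp with a median of 1008 bp (963 to 1080), against 561 bp (549 to 574) for regions of both ESC lists without an NPC peak and 349 bp over all 6581 regions. The peaks inside them had median widths of 859 bp (816 to 917) in serum, 910 bp (845 to 978) in 2i and 268 bp (254 to 290) in NPCs. The listed ESC peaks were thus far wider than the NPC peak, while those of the 2 media were of similar width: the 2i peak had a median of 1.06 times the width of the serum peak here and 1.06 times in the regions without an NPC peak. Width went with score within the NPC list too, at a Spearman correlation of 0.42 across the set. The lists differ in cutoff, and their depth is unknown. Whether the narrow NPC peaks reflect binding or how the lists were made was not tested. The serum peak was the wider of the 2 in 105 or 37.1% (31.5 to 43.0) of the 283 regions and in 42.6% (40.7 to 44.4) of the others.

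As listed, the NPC peak was a short stretch inside the ESC peaks, with the limit on widths given above. Comparing the highest-scored peak of each list, it lay wholly inside the serum peak in 258 regions, wholly inside the 2i peak in 266 and inside both in 250, or 88.3% (84.0 to 91.8). It was narrower than both ESC peaks in 274 of 283 regions. A reciprocal overlap of 50% with a peak of each ESC list was met in 44 regions, where NPC peaks had a median width of 454 bp and a median score of 22.0. Over all 283 the NPC peak had a median of 0.36 times the width of the serum peak (0.33 to 0.39) and 0.33 times that of the 2i peak (0.30 to 0.37). A stretch common to the highest peak of all 3 lists was present in 278 regions, and over all 283 its median length was 255 bp, nearly the whole NPC peak.

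This stretch lay near the middle of the ESC peaks. The NPC peak's centre was a median of 87.0 bp (73.0 to 104.5) from the serum centre and 91.0 bp (77.5 to 112.5) from the 2i centre, while the serum and 2i centres were a median of 43.5 bp (37.5 to 54.0) apart. In the 44 regions with a reciprocal overlap of 50% the distances were 47.8 bp from serum, 28.2 bp from 2i and 35.8 bp between the ESC centres, so their order was not the same. The NPC centre lay in the middle 50% of the serum peak in 246 or 86.9% (82.4 to 90.6) of the regions. The centre of a narrow peak inside a wider one cannot lie at the wider peak's edges. No baseline of freely placed peaks was made, so whether NPC peaks lie more centrally than such peaks was not tested. There was no side to the offset along the chromosome, with the NPC centre at the higher coordinate in 137 of 283 regions or 48.4% (42.5 to 54.4). The offset was larger in wider serum peaks, with a Spearman correlation of 0.46 across the 283 regions, which share their 3 libraries. A wide peak leaves more room for an offset than a short one.

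**Figure D3:**
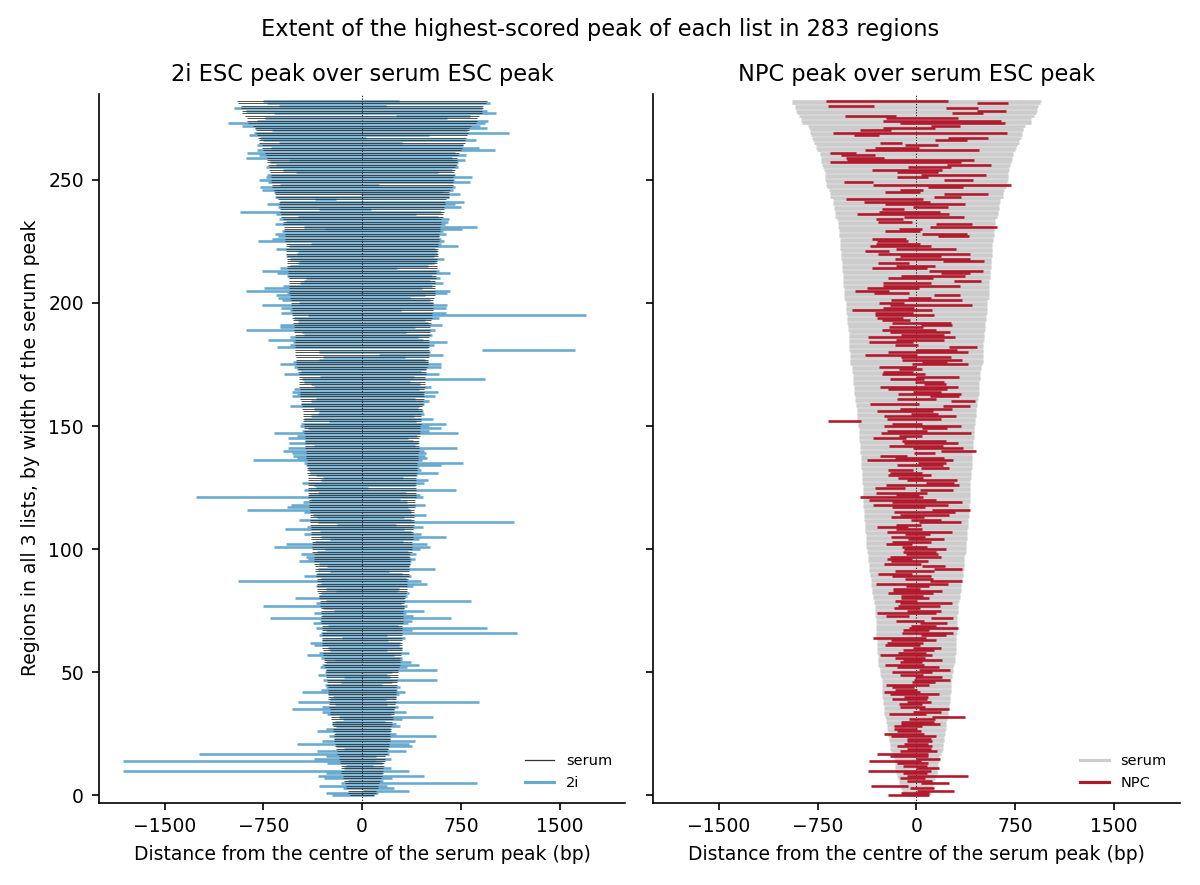
Extent of the highest-scored peak of each list in the 283 regions, 1 region per row, sorted by the width of the serum peak, with distance from the serum peak's centre in bp on the horizontal axis. On the left the 2i peak (blue) is drawn under the serum peak (dark lines), and on the right the NPC peak (red) over the serum peak (grey). Most 2i peaks extend over nearly the same stretch as the serum peak, and the NPC peaks form a narrow band around the centre, with a median centre distance of 87.0 bp.

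Most regions were single peaks in every state. In 237 regions or 83.7% (78.9 to 87.8) each list had exactly 1 peak. A further peak of the same list was present in 22 regions for serum, or 7.77% (4.94 to 11.5), in 13 for 2i, or 4.59% (2.47 to 7.73), and in 16 for NPCs, or 5.65% (3.27 to 9.02). In the 2778 other regions of both ESC lists the shares were 4.90% (4.12 to 5.76) for serum and 2.99% (2.39 to 3.69) for 2i, with intervals that overlap those of the 283.

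The 16 regions with 2 NPC peaks were wider than most, with widths from 818 to 1946 bp and a median of 1388.5 bp, against 989 bp in the other 267. A region must be long enough to hold 2 separate NPC peaks, so the pick itself favours wide regions. In 14 of them each ESC list had a single peak. The gap between the 2 NPC peaks ran from 65 to 531 bp with a median of 136 bp. At chrX:91367508-91369085 the 2 NPC peaks scored 28.2 and 25.8, were 255 and 957 bp wide and lay 66 bp apart under ESC peaks that scored 119.1 in serum and 149.9 in 2i. At chr1:38185696-38187131 they scored 21.4 and 16.0 with a gap of 147 bp, under ESC peaks at 157.7 and 83.4. Both pairs were close to even in score. The pair at chr1:179371396-179373341 was uneven, at 65.8 and 10.4, as was that at chr4:133368889-133370719, at 41.2 and 6.45.

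The reverse, an NPC peak wider than an ESC peak, was found in 9 regions. The largest difference against serum in bp was at chr5:139470791-139471674, where the NPC peak was 464 bp wide, the serum peak 296 bp and the 2i peak 811 bp. At chr8:86520533-86522653 the NPC peak was 1043 bp wide, between the 749 bp of 2i and the 1375 bp of serum. The widest NPC peak of the set, 1320 bp at chr6:72848733-72850669, still lay inside ESC peaks of 1611 and 1937 bp, with scores of 95.5 in serum, 94.5 in 2i and 39.4 in NPCs. The highest NPC score among the 9 was 22.9, at chr10:7675354-7676691, where the NPC peak was 588 bp wide and the 2i peak 161 bp.

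The order of the 283 regions was shared most between the 2 ESC media. Across the regions the Spearman correlation of scores was 0.75 for serum and 2i, 0.48 for serum and NPCs and 0.37 for 2i and NPCs. These are descriptions over regions that share a library, with no p. In the 44 regions with a reciprocal overlap of 50% they were 0.86, 0.71 and 0.73. For serum and 2i it was 0.57 over the 2778 regions without an NPC peak, which cover a lower and narrower range. The width of ESC peaks went with the NPC score much less than their height: the NPC score had a correlation of 0.12 with serum width and 0.01 with 2i width. Wide ESC regions held an NPC peak more often, while among those that held one the NPC score did not follow ESC width.

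**Figure D4:**
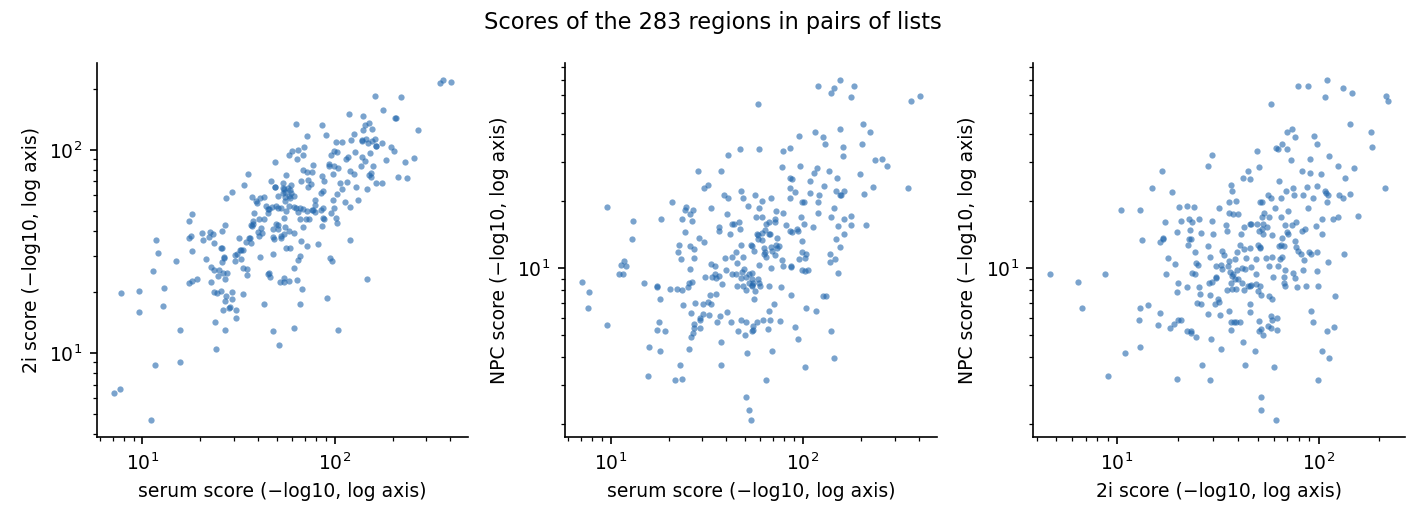
Scores of the 283 regions (−log10 of p or q, log axes), 1 point per region, for serum against 2i, serum against NPCs and 2i against NPCs. The cloud is tightest for serum and 2i (Spearman 0.75) and broader for NPCs (0.48 with serum and 0.37 with 2i).

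Divided by NPC score, the ESC scores were highest in the top quartile of NPC scores. In the lowest quartile of NPC score (2.07 to 7.99) the median serum score was 37.7 (30.2 to 51.5), in the second 49.0 (40.0 to 55.2), in the third 62.3 (54.7 to 71.4) and in the highest (18.6 to 70.3) 114.6 (86.0 to 136.4). The median 2i scores were 36.7, 41.8, 47.7 and 75.6 in the same order. NPC peaks were wider in the higher quartiles, with medians of 215, 244, 275 and 393 bp, while the serum peaks had medians of 820, 819, 864 and 900 bp with intervals that overlap. High NPC scores thus went with wider NPC peaks under serum peaks of similar width.

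A core of 19 regions was among the 50 highest of the set in each of the 3 lists. Their scores ran from 128.1 to 404.8 in serum (median 184.0), from 88.8 to 220.8 in 2i (median 125.6) and from 22.3 to 70.3 in NPCs (median 36.3). Of the 50 highest in serum, 32 were also among the 50 highest in 2i and 27 among those in NPCs. At the other end, 7 regions were among the 50 lowest in all 3 lists. No region was among the 50 highest in NPCs and the 50 lowest in serum, while 2 were among the 50 highest in serum and the 50 lowest in NPCs.

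Within the set, the highest NPC scores belonged to regions high in ESCs, with 1 exception among the first 10. The region chr11:98656034-98657302 led the NPC scores of the set with 70.3, and scored 156.0 in serum and 110.6 in 2i. It was followed by chr1:173258938-173259964 with 65.9 in NPCs, 184.0 in serum and 88.8 in 2i, and by the uneven pair on chromosome 1 named above. The region chr14:52633693-52634718 scored 65.0 in NPCs, 144.6 in serum and 131.9 in 2i. These 4 regions were 1026 to 1946 bp long, so their NPC peaks of 460 to 800 bp were wide for that list.

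Next in NPC score came a short region. At chr9:44689250-44689806 the NPC peak was only 179 bp wide and scored 61.4, in a region of 557 bp that scored 140.3 in serum and 146.3 in 2i. The region with the highest serum score, chr9:108392680-108393530, followed with 59.6 in NPCs, and chr15:102033610-102034758 was next with 59.2, at 177.1 in serum and 107.8 in 2i. The exception was chr19:10599452-10600290, with 55.0 in NPCs and close to the median of the set in both ESC lists, at 58.7 in serum and 58.0 in 2i. The tenth, chr9:45714004-45715207, scored 44.7, 205.4 and 143.6 in NPCs, serum and 2i.

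Some regions stood far higher among the 283 in NPCs than in serum. By rank difference the first was chrX:166424562-166425142, with scores of 18.9 in NPCs, 9.62 in serum and 20.3 in 2i. It lay in a crowded stretch with 8 other regions within 10 kb, whereas 268 of the 283 had 1 or none. The others were chr1:178743663-178744374 (19.9 in NPCs and 20.8 in serum), chr7:117103431-117104130 (27.3 and 28.4), chr10:126817850-126818380 (16.3 and 13.0) and chr14:49791664-49792651 (23.8 and 31.9). All 5 were below the median width of the set, at 531 to 988 bp. Their 2i scores lay between 16.7 and 37.0, below the median of the set, as were their serum scores. Picking by this rank difference favours low serum scores, and serum and 2i scores went together across the set (Spearman 0.75). These are therefore values of the 5 regions and not a comparison.

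Regions that stood far lower in NPCs than in serum were high in serum, and most of them also in 2i. At chr6:113026002-113027864, 1863 bp long, the scores were 146.0 in serum, 112.9 in 2i and 3.96 in NPCs, and the NPC peak was 219 bp wide. At chr4:122562876-122563723 they were 139.5, 110.6 and 5.22 in the same order, and at chr7:35173950-35174974 they were 102.9, 60.4 and 3.59. A neighbour on the same chromosome, chr7:35841043-35842135, scored 117.6, 91.8 and 6.45. The fifth, chr3:97030897-97031651, scored 94.4 in serum, 29.3 in 2i and 4.81 in NPCs. Its 2i score was below the median of the set, though 15.9% from the top of the whole 2i list. The NPC peaks of these 5 regions were 176 to 255 bp wide, under the median of 268 bp. The pick favours high serum and low NPC scores, and NPC width went with NPC score across the set (Spearman 0.42). Their serum scores and NPC widths are therefore no comparison.

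Between the media, few regions changed place by much. The rank among the 283 differed by 100 places or more between serum and 2i in 24 regions, or 8.48% (5.51 to 12.4), and between serum and NPCs in 69, or 24.4% (19.5 to 29.8). The 5 regions that stood lowest in 2i relative to serum had 2i peaks narrower than their serum peaks. At chr5:97426067-97427314 the score was 103.6 in serum and 13.0 in 2i, with peaks of 1248 and 396 bp, and the NPC score was 6.63. At chr11:48630380-48631204 the scores were 148.2 in serum, 23.2 in 2i and 13.6 in NPCs, at chr11:69714903-69715687 they were 91.4, 18.7 and 22.2, at chr7:5002981-5003436 they were 96.4, 28.4 and 28.8, and at chr15:102301219-102301765 they were 66.4, 17.4 and 16.1. In 4 of these 5 the NPC score was above the median of 11.8.

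The 5 that stood highest in 2i relative to serum by this ranking had NPC scores below the median of the set. At chr2:27532105-27533484 the scores were 35.3 in serum and 76.5 in 2i, with peaks of 508 and 1380 bp, and 9.03 in NPCs. At chr14:21365002-21365931 they were 33.7, 67.3 and 9.16 in serum, 2i and NPCs, and at chr13:35833142-35834026 they were 29.2, 61.9 and 6.00. The last 2, chr15:96116798-96118405 and chr1:39957160-39958414, scored 58.0 and 86.8 in 2i, 27.2 and 48.7 in serum, and 5.40 and 8.33 in NPCs. The regions at both ends were picked by their ranks among the 283, so these are values of 10 regions and not a comparison. Ranked by percentile of the whole list instead, 0 of the 5 higher and 1 of the 5 lower in 2i were the same regions.

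The limits of the set are soft on the NPC side. The 3 lowest NPC scores were 2.07 at chr17:66131825-66133368, 2.30 at chr16:64851183-64852605 and 2.64 at chr8:90722869-90724254, which were the 3 members at or below 3, the cutoff of the ESC lists on the −log10 scale. They were ordinary members in ESCs, with serum scores of 53.6, 52.7 and 50.6 and 2i scores of 61.5, 51.8 and 51.7. Another 16 regions scored between 3 and 5 in NPCs. Among the 10 lowest NPC scores, serum scores ranged from 15.7 at chr10:11000409-11001566 to the 102.9 at chromosome 7 given above. The ESC scores of these 10 regions were thus spread widely.

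The ESC side of the limit held weaker sites. The lowest serum score was 7.09 at chr12:92827537-92827917, which scored 6.38 in 2i and 8.72 in NPCs. Next were chr14:55512895-55513358, at 7.64, 6.67 and 6.63, and chr17:39984381-39985767, at 7.70, 19.8 and 7.87. The last has 3 other regions within 10 kb. The lowest 2i score was 4.66 at chr17:63848469-63848789, at 11.0 in serum and 9.47 in NPCs. Among the 4 regions outside the top 50% of both ESC lists, which were the first 2 named here, that one and chr7:125386752-125387150 (11.6, 8.74 and 9.43 in serum, 2i and NPCs), the NPC scores were 6.63 to 9.47, below the median of 11.8 but not at the bottom of the NPC list.

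Just outside the set were 6 regions with an NPC peak and a peak of 1 ESC list. With serum these were chr3:133902811-133903322 (33.3 in serum and 17.7 in NPCs), chr18:84256766-84257371 (22.1 and 6.49) and chr15:85501401-85501860 (11.9 and 14.4). With 2i they were chr12:114336216-114336997 (24.9 in 2i and 9.43 in NPCs), chr8:47237150-47237780 (15.3 and 8.68) and chr14:70919837-70920163 (5.32 and 5.50). Another 7 regions held an NPC peak alone, with scores from 6.23 to 80.8 and widths from 173 to 345 bp. The highest, chr8:42533863-42534050 at 188 bp, scored above the 70.3 that led the set. Next was chr17:88853756-88853928 with 27.9. On the other side, 22 of the 2778 regions of both ESC lists without an NPC peak had one within 1 kb, or 0.792% (0.497 to 1.20). Such an NPC peak can already belong to a region of the set, and NPC peaks are few, so this share does not count near misses. Joining peaks within 1 kb gave 284 regions in all 3 lists. The 5 highest serum scores without an NPC peak ran from 182.9 at chr6:122289306-122290161 to 211.8 at chr11:3996350-3997018, which is above the serum score of most of the 283.

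Some regions were wide because they joined several peaks. The widest, chr2:72816648-72818910 at 2263 bp, held 2 peaks of each ESC list, scored 62.7 in serum and 133.5 in 2i, and had an NPC peak of 865 bp with a score of 11.6. At chr1:180266300-180268532, 2233 bp long, the 2i list had 1 peak of 2114 bp and the serum list 2 peaks, with scores of 164.6 in serum, 104.5 in 2i and 16.7 in NPCs. At chr14:115439462-115441636 a 2i peak of 2175 bp lay over serum peaks of which the higher was 317 bp wide, with 23.6, 25.6 and 16.6 in serum, 2i and NPCs. The 3 narrowest, at 295 to 327 bp, were chr9:13632148-13632442, chr17:63848469-63848789 and chr2:32218447-32218773. Their NPC scores of 17.6, 9.47 and 6.83 lay within the range of the rest.

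In 5 regions the highest peaks of the 3 lists had no stretch in common, although the region as a whole joined them. At chr17:48548046-48549863 the serum peak scored 140.3, the higher of 2 peaks in 2i 125.5 and the higher of 2 NPC peaks 17.1. At chr16:84834623-84836205 the scores were 95.5, 48.9 and 11.0, with 2 peaks in 2i. In all 5 the highest NPC peak overlapped the highest serum peak but not the highest 2i peak.

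The regions were scattered over the genome. Every autosome held some, from 7 on chromosomes 16 and 19 to 27 on chromosome 2, and X held 2. Per Mb of the span that peaks delimit, chromosome 17 was the densest with 0.210 and X the sparsest with 0.0120. Against the regions of both ESC lists on the same chromosome, the share with an NPC peak ran from 6.36% (2.60 to 12.7) on chromosome 19 to 13.6% (7.63 to 21.8) on chromosome 14. All 20 intervals, X with 6.90% (0.846 to 22.8) included, held the 9.25% over all chromosomes. The low number on X thus went with few ESC regions there, 29 in both lists, and no chromosome's share was set apart at these counts.

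**Figure D5:**
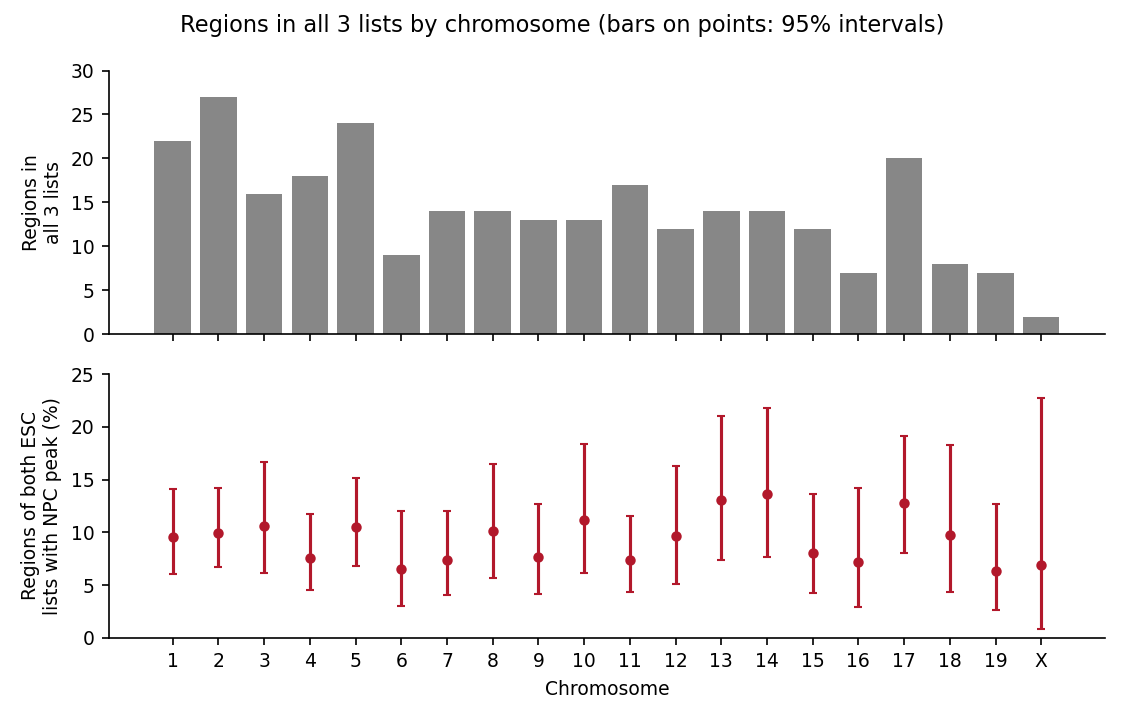
Number of regions in all 3 lists per chromosome (top, bars) and percent of the regions of both ESC lists on that chromosome with an NPC peak (bottom, points with 95% binomial intervals). Chromosome 2 has the most regions with 27 and X the fewest with 2, and each interval in the lower panel contains 9.25%.

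Gaps within the set were measured with no baseline of equally many sites, so whether its regions lie closer or further apart than such sites was not tested. The gap to the nearest other region of the set had a median of 1603 kb, and 18 regions, in 9 pairs, had another of the 283 within 100 kb. The closest pair lay 15.8 kb apart at chr2:90894088-90894511 and chr2:90910319-90910829, with NPC scores of 34.7 and 32.1, serum scores of 85.2 and 162.0 and 2i scores of 61.2 and 113.3. The next, at chr2:34609296-34610130 and chr2:34626999-34627498, lay 16.9 kb apart with NPC scores of 12.8 and 6.45. Other pairs were uneven: at chr10:126725667-126726746 and chr10:126817850-126818380, 91.1 kb apart, the serum scores were 203.1 and 13.0 and the NPC scores 36.3 and 16.3.

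Other regions lay near the 283 at about the same share as near other ESC regions. A region of any kind lay within 1 kb of 48 of the 283, or 17.0% (12.8 to 21.9), and of 17.0% (15.6 to 18.4) of the 2778 ESC regions with no NPC peak. Within 10 kb the shares were 25.8% (20.8 to 31.3) and 26.0% (24.3 to 27.6). Only 3 of the 283 had 3 or more other regions within 10 kb: the regions at the distal end of X and at chr17:39984381-39985767 named above, and chr2:17977863-17978909, which was strong in every list at 162.0 in serum, 184.1 in 2i and 35.3 in NPCs. Crowded surroundings thus held both weak and strong members. The same count was not made for the other ESC regions, so it says nothing particular to the set.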

How the data were processed

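ZBTB2-GFP was mapped by chromatin immunoprecipitation and sequencing, and 3 peak lists, 1 per library and cell state, were used. Peaks are in mm9 and were made with MACS2 2.0 and SAMtools, per the submitters' processing notes. The score of each peak, deposited by the authors, was read as a significance on the −log10 scale, because the lowest score lies just above the cutoff in the peak names. The sources used here do not give the control library or the aligner, nor whether p or q was used. Read depth is unknown, so no precision can be given from it.

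Peaks of the 3 lists were pooled and merged where they overlapped by at least 1 bp. The chromosome 10 segment left out is the chain of 2i peaks, each at most 10 kb from the next, that holds the most peaks. A list's score, width and centre in a region are those of its highest-scored peak there, and starts are 1-based. Shares carry Clopper-Pearson and medians order-statistic intervals, at 95%. No test between states was made, because each group has 1 library. Python 3.11.15, numpy 2.4.6, pandas 2.3.3 and scipy 1.17.1 were used. Merging with bedtools 2.31.1 gave the same 283 regions. The functions that merge peaks and sort regions by list were tested on 4000 simulated sites with 300 planted regions in all 3 lists, recovered with a difference of 0. Each simulated site had at most 1 peak per list. Regions with several peaks of a list, the segments left out, ranks and intervals were not covered.

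The regions and the rules that name them were chosen with earlier results of these data known. Named were the 10 highest and the 10 lowest NPC scores, the 5 largest rank differences each way between serum and NPCs and between serum and 2i, the 3 widest and the 3 narrowest regions, regions with 2 NPC peaks, the closest pair, and those just outside. The 10 lowest and the 16 with 2 NPC peaks are given in part. Other regions named (crowded, lowest ESC scores, wide NPC peaks, without a common stretch, further pairs) were chosen after their values were seen. The gene and promoter tables at hand belong to GRCm38.p6, a different build, and no coordinates were converted. Sequences, genes, start sites, CpG content and motifs of the regions are therefore not analysed here. Alternatives were another overlap rule, joining within 1 kb, the higher-scored 50% of each list, an NPC score above 3, keeping the segments left out, and summed scores.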

Additional observations from a re-analysis of the deposited data

How the results depend on the processing

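Of 85 alternative values, 63 stayed within the interval of the reported value, or within 1.5 times the count, and 22 moved. A reciprocal overlap of 50% between the NPC peak and a peak of each ESC list left 44 regions, since NPC peaks are narrow. In these 44 the median scores were 70.1 in serum, 57.9 in 2i and 22.0 in NPCs, and the median widths were 791.5 bp for the regions, 729 bp for serum, 694.5 bp for 2i and 454 bp for NPC peaks. Score correlations under that rule were 0.86 for serum and 2i, 0.71 for serum and NPCs and 0.73 for 2i and NPCs, and the median centre distances were 35.8, 47.8 and 28.2 bp in the same order. Its share of NPC peaks inside both ESC peaks stayed within the interval. The higher-scored 50% of each list left 146 regions, with median scores of 76.3, 63.6 and 17.8 in serum, 2i and NPCs and median widths of 923.5 bp for serum and 323.5 bp for NPC peaks. Joining peaks within 1 kb gave a median region width of 1116.5 bp. With all peaks of a list in a region taken as 1 stretch, an alternative chosen after seeing the data, the NPC stretch lay inside both ESC stretches in 92.2%. The other alternative chosen then, taking the regions with 1 peak of each list, moved no centre distance. An NPC score above 3 and the segments left out, when kept, moved none of the 15 values, and summed scores moved none of the 6 they touch. By percentile of the whole list instead of rank among the 283, the 5 regions named at each end changed: 3 of 5 higher and 4 of 5 lower in NPCs than in serum were the same regions, and 0 of 5 higher and 1 of 5 lower in 2i. No replicate could be left out and no paired analysis was possible because each group has 1 library. Alternatives that need an mm9 genome or annotation were not run. Without the read depth of the libraries, no limit from depth can be given.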
